A study of Mus musculus with 2 samples.

Results

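The 8 genes described here mark blood vessels and the signals that shape them. They are Pecam1, Cdh5 and Vwf, which identify endothelial cells, Kdr and Flt1, the receptors for vascular endothelial growth factor (VEGF), Tek and its ligand Angpt2, and Esm1. They were taken by symbol from the 19465 features of a spatial transcriptomics series, and all 8 had counts in both of its libraries. One library came from a pancreatic tumor labelled KPC-shZEB1 and the other from a tumor labelled KPC-shV. KPC is a mouse pancreatic cancer line, shZEB1 stands for a knockdown of the transcription factor ZEB1 in it, and shV is the control vector. Cells of either kind were injected into the mouse pancreas, and frozen, methanol-fixed sections of the allograft tumors were read on Visium CytAssist slides. The labels and methods give 2 tumors per group and do not say which of them a library covers. The study describes these tumors in the setting of gemcitabine treatment, whereas the labels name no drug. The methods list young mice of more than one strain and do not tie these tumors to one of them. Because the cancer cells carry the knockdown and the vessels grow in from the host, the endothelial cells themselves were not targeted.

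Blood vessels are lined by endothelial cells, and they sprout when tissue is short of oxygen. Hypoxic cells release VEGF-A, which signals through KDR (VEGFR2) on endothelial cells, while FLT1 (VEGFR1) binds the same ligand tightly with weak signaling and in its soluble form acts as a decoy. Endothelial cells that lead a sprout, called tip cells, express Esm1, a secreted proteoglycan, and the Notch ligand Dll4. Angpt2 is released by activated endothelium and competes with Angpt1 for the receptor TIE2, the product of Tek, and so loosens vessels. PECAM1 and VE-cadherin, the product of Cdh5, hold endothelial cells together, and von Willebrand factor (Vwf) is stored in endothelium and in platelets for clotting. FLT1 is also made by cells other than endothelium, such as macrophages and trophoblast.

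Promoters are shown for Flt1, Kdr and Esm1, because the first pair stood in opposite order along the hypoxia levels described below and the last differed most between the libraries. Each run is the 250 bases upstream of the gene start, 5′ to 3′ on the strand of the gene, from RefSeq on GRCm38.p6. Capitals mark the core letters of a hypoxia response element, searched as ACGTG or GCGTG on both strands.
Flt1, chr5:147726012-147726261, minus strand: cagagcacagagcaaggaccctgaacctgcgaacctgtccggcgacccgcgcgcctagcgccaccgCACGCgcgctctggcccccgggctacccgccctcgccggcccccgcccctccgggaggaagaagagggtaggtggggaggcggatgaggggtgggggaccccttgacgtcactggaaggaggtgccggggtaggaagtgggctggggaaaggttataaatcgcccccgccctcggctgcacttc
Kdr, chr5:75978456-75978705, minus strand: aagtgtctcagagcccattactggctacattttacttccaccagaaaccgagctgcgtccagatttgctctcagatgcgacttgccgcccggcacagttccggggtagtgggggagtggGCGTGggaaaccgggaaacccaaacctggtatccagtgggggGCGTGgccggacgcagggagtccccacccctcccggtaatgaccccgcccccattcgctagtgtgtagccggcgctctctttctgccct
Esm1, chr13:113209409-113209658, plus strand: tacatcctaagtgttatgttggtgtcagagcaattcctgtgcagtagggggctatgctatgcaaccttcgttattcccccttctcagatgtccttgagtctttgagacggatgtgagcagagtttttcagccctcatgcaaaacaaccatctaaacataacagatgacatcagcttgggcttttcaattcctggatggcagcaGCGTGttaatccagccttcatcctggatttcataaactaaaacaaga
A promoter entry was matched for 4 of the 8 genes, the fourth being Tek. The Kdr window held 2 matches, the Flt1 and Esm1 windows 1 each and the Tek window 0, while 38.6% of all 32851 promoter windows of this length held at least 1. ETS factors are the main activators of endothelial genes, and their core, searched as CAGGAA or CCGGAA on both strands, was present 1 time for Kdr, 0 times for Flt1, 2 times for Tek and 2 times for Esm1, against 35.1% of all windows with at least 1. These matches describe letters only. The genes themselves lie on GRCm38 at chr11:106654217-106750628 (Pecam1, ENSMUSG00000020717), chr8:104101625-104144511 (Cdh5, ENSMUSG00000031871), chr5:75932827-75978458 (Kdr, ENSMUSG00000062960), chr5:147561604-147726011 (Flt1, ENSMUSG00000029648), chr6:125546774-125686679 (Vwf, ENSMUSG00000001930), chr4:94739289-94874976 (Tek, ENSMUSG00000006386), chr8:18690263-18741562 (Angpt2, ENSMUSG00000031465) and chr13:113209659-113218098 (Esm1, ENSMUSG00000042379).

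The library labelled KPC-shZEB1 held 2220 spots and 140493626 unique molecular identifiers (UMIs), and the library labelled KPC-shV held 3552 spots and 172059528 UMIs. Each spot covers several cells, often of more than one type, so that fewer endothelial cells and less RNA per endothelial cell cannot be told apart. Acinar-rich spots, where digestive enzyme genes gave over 20% of UMIs, made up 34.0% of the spots labelled KPC-shZEB1 but 6.95% of the spots labelled KPC-shV, and the other 1466 and 3305 spots are the tumor side of the sections. The level of a gene, in CPM, is its UMIs summed over spots, divided by all UMIs of those spots and multiplied by 1e+06, with an exact 95% Poisson interval, and libraries or spot classes are compared by a log2 ratio with an exact conditional binomial interval. With 1 library per group nothing was replicated and no test was run, so all intervals cover counting error only. Zeb1 itself was read outside acinar-rich spots at 15.6 CPM under the KPC-shZEB1 label and 12.7 CPM under the KPC-shV label, a log2 ratio of 0.30 (0.20 to 0.40) that goes against the labels. Over all spots the ratio was -0.20 (-0.30 to -0.11). Acinar genes made up 23.0% and 1.64% of all UMIs, respectively, and the median gene over all spots was at -0.48, further down than Zeb1. The sign change for Zeb1 is therefore no sign of agreement with the labels. These spots mix cancer cells with host cells that also express Zeb1 and carry no knockdown, so the value is a weak check of the labels. Macrophage genes stood at 2439 and 1558 CPM and fibroblast genes at 4617 and 4174 CPM on the tumor side, and their part in the Zeb1 level was not tested. Values given under a label below are those of the library that carries it. Probe-based counts of different genes are not on one scale, and levels are compared within a gene only. As a floor, 12 genes with no expected role in pancreas or tumor, such as those of the retina and testis, were read outside acinar-rich spots at 0.56 to 5.58 CPM under the KPC-shZEB1 label and at 0.76 to 8.31 CPM under the KPC-shV label, with medians of 1.11 and 1.09 CPM. The upper end was Omp in each library, and the next highest were Tnp2 at 1.98 CPM and Sag at 2.87 CPM, respectively.

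The vessel label was first checked with 14 other endothelial genes, among them Plvap, Cldn5, Emcn, Erg and Eng, which hold none of the 8. On the tumor side this pan-endothelial list summed to 437 CPM under the KPC-shZEB1 label and 459 CPM under the KPC-shV label, a log2 ratio of -0.07 (-0.09 to -0.05). All 14 genes were detected in both libraries, 10 of them lower and 4 higher under the KPC-shZEB1 label, with a median log2 ratio of -0.33. Across deep spots, Pecam1, Cdh5 and Kdr followed this list with Pearson r between 0.59 and 0.74, and Vwf with 0.55 and 0.51. Flt1 did not, with 0.01 and 0.09. These correlations describe 1412 and 2673 spots that share a section, a library and a range of depths.

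With all tumor-side spots summed, Esm1 stood furthest apart between the libraries and Pecam1 nearest to no difference. Within each hypoxia level described below, however, Pecam1 was lower under the KPC-shZEB1 label. Flt1, Cdh5 and Angpt2 were also lower under the KPC-shZEB1 label, Kdr slightly lower, and Vwf and Tek slightly higher. The 8 genes together were read at 140.3 CPM under the KPC-shZEB1 label and 203.4 CPM under the KPC-shV label. Flt1 alone gave 33.6 and 65.4 CPM of these sums. The log2 ratio of the sums was -0.54 (-0.57 to -0.51). One of the 8 genes, Esm1, had a log2 ratio of at most -1, against 1.72% of the 18898 genes with at least 100 UMIs, and 0 had a ratio of at least 1, against 3.79%. The median over the 8 was -0.42 and over all genes tested -0.01.

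**Figure D1:**
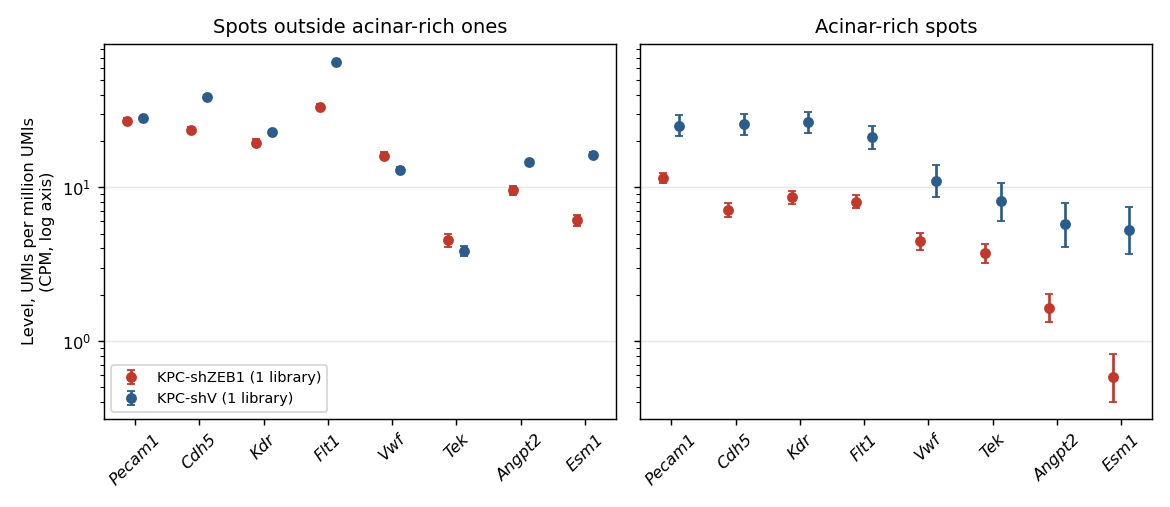
Level of each of the 8 genes in CPM on a log axis, in spots outside acinar-rich ones (left) and in acinar-rich spots (right), with 1 point per library and bars for the 95% Poisson interval. Esm1 and Flt1 show the widest gaps between the libraries on the left, while all 8 genes lie lower for KPC-shZEB1 on the right.

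Among the genes of endothelial identity, Pecam1 was read at 27.3 CPM (26.2 to 28.4) under the KPC-shZEB1 label and 28.5 CPM (27.7 to 29.3) under the KPC-shV label, and the interval of their log2 ratio, -0.06 (-0.14 to 0.01), spans 0. Cdh5 was read at 23.5 CPM (22.5 to 24.6) and 38.8 CPM (37.9 to 39.8), respectively, a ratio of -0.72 (-0.79 to -0.65). The ratios of the junction genes thus parted, although both encode proteins of the same cell contacts. Across deep spots, Pearson r with the macrophage list was 0.51 and 0.48 for Pecam1 and 0.43 and 0.54 for Cdh5. The part of cells other than endothelium in these ratios was not tested. Vwf was the reverse, with 16.1 CPM (15.3 to 17.0) and 13.0 CPM (12.5 to 13.6), a ratio of 0.31 (0.21 to 0.41). Since Vwf is also stored in platelets, a platelet list of 5 genes was read beside it. That list summed to 93.1 and 93.5 CPM, with ratios of its genes from -1.22 for Ppbp to 0.13 for Pf4, and its part in the Vwf level was not tested.

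The VEGF receptors also parted. Kdr was read at 19.6 CPM (18.6 to 20.5) under the KPC-shZEB1 label and 22.9 CPM (22.2 to 23.7) under the KPC-shV label, a log2 ratio of -0.23 (-0.31 to -0.15). Flt1 was read at 33.6 CPM (32.4 to 34.9) and 65.4 CPM (64.2 to 66.6), a ratio of -0.96 (-1.02 to -0.90) or 1.94-fold lower. Without the 5% of spots with the highest Flt1 the ratio was -1.06, which brings the count of genes at or below -1 to 2. Gene counts sum the probes of a gene, so membrane-bound and soluble FLT1 transcripts were not told apart. Across deep spots, Pearson r of Flt1 was -0.14 and -0.07 with the macrophage list and 0.09 and 0.14 with the tumor epithelium list. The part of these cells in the Flt1 level was not tested.

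Of the angiopoietin axis, the receptor gene Tek was read at 4.5 CPM (4.1 to 5.0) under the KPC-shZEB1 label and 3.8 CPM (3.6 to 4.2) under the KPC-shV label, a log2 ratio of 0.23 (0.04 to 0.41). These levels lie within the range of the 12 genes with no expected role, though above their medians and above all of them but Omp. Its ligand gene Angpt2 was read at 9.6 CPM (8.9 to 10.2) and 14.6 CPM (14.0 to 15.2), a ratio of -0.61 (-0.73 to -0.50). The tip-cell gene Esm1 was read at 6.1 CPM (5.6 to 6.6) and 16.3 CPM (15.7 to 16.9), a ratio of -1.42 (-1.56 to -1.28) or 2.67-fold lower. Of the 8 genes, Tek and Esm1 were also the most concentrated under the KPC-shZEB1 label, where the 5% of spots with the highest level held 45.9% of the Tek UMIs and 52.1% of the Esm1 UMIs, against 20.5% for Flt1.

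Read per pan-endothelial UMI instead of per total UMI, the ratios on the tumor side moved by little. They were -1.35 (-1.49 to -1.21) for Esm1, -0.89 (-0.95 to -0.83) for Flt1, -0.65 (-0.73 to -0.58) for Cdh5 and -0.54 (-0.66 to -0.43) for Angpt2. They were -0.16 (-0.25 to -0.08) for Kdr, 0.01 (-0.07 to 0.08) for Pecam1, 0.30 (0.11 to 0.48) for Tek and 0.38 (0.28 to 0.48) for Vwf. These values depend on the summed list, which was at -0.07 while the median over its 14 genes was -0.33. Its largest genes were Eng (105.8 and 99.7 CPM, ratio 0.09), Plvap (103.8 and 131.7 CPM, -0.34) and Ecscr (100.8 and 79.2 CPM, 0.35). Hypoxic spots made up a different share of each section, with the hypoxia list described below at 905 CPM under the KPC-shZEB1 label and 1676 CPM under the KPC-shV label. When low, middle and high hypoxia spots were given equal weight, Esm1 stayed at -1.47, Angpt2 was at -0.68 and Flt1 at -0.68. The pan-endothelial list came to -0.32 by this weighting. Cdh5 and Kdr moved further down, to -0.96 and -0.53, Pecam1 to -0.33, and Vwf and Tek came to 0.05 and -0.01, so the direction for Tek turned. Within low, middle and high hypoxia, Pecam1 was at -0.15 (-0.25 to -0.06), -0.48 (-0.61 to -0.36) and -0.74 (-1.09 to -0.41). The pan-endothelial list was at -0.27, -0.43 and -0.22, respectively.

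**Figure D2:**
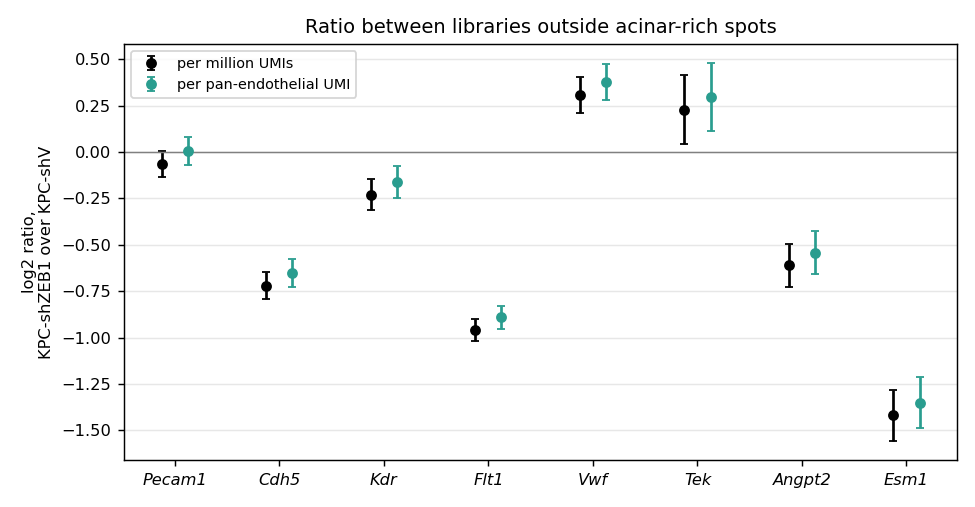
Log2 ratio between the labels (KPC-shZEB1 divided by KPC-shV) for each gene outside acinar-rich spots, from CPM (black) and per pan-endothelial UMI (green), with 95% intervals for counting error. Esm1 lies lowest at -1.42 and -1.35, Pecam1 near 0, and Vwf and Tek above 0 by either measure.

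With each spot thinned to 5000 UMIs, Esm1 had at least 1 UMI in 2.46% (1.73% to 3.39%, exact binomial) of 1462 tumor-side spots labelled KPC-shZEB1 and 7.41% (6.52% to 8.39%) of 3130 labelled KPC-shV. Shallower spots were left out, 4 and 175 of them, respectively. Flt1 was present in 15.0% (13.2% to 16.9%) and 29.3% (27.7% to 31.0%), and Kdr in 10.1% (8.56% to 11.7%) and 12.0% (10.9% to 13.2%). In acinar-rich spots the thinned share of Esm1 was 0.398% of 754 spots and 2.95% of 237 spots. Without thinning, the tumor-side shares were 20.8% and 31.9% for Esm1, 73.9% and 83.4% for Flt1, and 52.4% and 44.4% for Kdr, so that the order for Kdr was the reverse of the thinned one. That order was not stable, since another random draw at 5000 UMIs gave 11.2% and 11.4% for Kdr, and thinning to 20000 UMIs gave 30.2% and 28.8%. Esm1 came to 3.49% (2.61% to 4.56%) and 7.86% in the other draw and to 8.85% and 20.7% at 20000 UMIs, lower under the KPC-shZEB1 label each time. Median depths on the tumor side were 58246.5 and 54769 UMIs.

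The difference in Esm1 was widest in vessel-rich tissue. Tumor-side spots of both libraries were pooled and divided into quartiles of the pan-endothelial list, at 156, 306 and 639 CPM. Vessel-rich, vessel-poor and vessel content refer here and below to the level of this list only. From the lowest to the highest quartile, Esm1 was read at 3.4, 5.3, 6.9 and 8.5 CPM under the KPC-shZEB1 label. In the library labelled KPC-shV it was read at 3.6, 7.0, 16.7 and 42.3 CPM. In the lowest quartile the libraries therefore did not differ beyond counting error, with a log2 ratio of -0.08 (-0.58 to 0.40). The ratio was -0.40 (-0.70 to -0.11) in the second quartile and -1.27 (-1.51 to -1.04) in the next. It was -2.32 (-2.59 to -2.07) in the highest, a 5.01-fold difference. The highest quartile also differed in other cells between the labels, with lymphatic genes at 138 and 33.5 CPM, tumor epithelium at 2472 and 4369 CPM and acinar genes at 15980 and 6702 CPM, and their part was not tested. The lowest levels lie within the range of the genes with no expected role, though above all of them but Omp.

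Flt1 varied far less over these quartiles. Its levels over the quartiles were 40.6, 30.8, 31.0 and 37.1 CPM under the KPC-shZEB1 label and 63.9, 55.6, 58.0 and 87.2 CPM under the KPC-shV label. The highest over the lowest quartile gave a log2 ratio of -0.13 (-0.30 to 0.04) and 0.45 (0.37 to 0.52), respectively. Kdr, which binds the same ligand, gave 3.51 (3.15 to 3.89) and 4.60 (4.34 to 4.86) over the same quartiles, beside 3.41 and 3.57 for the pan-endothelial list that set them. Per pan-endothelial UMI, Kdr was thus at 0.10 (-0.27 to 0.46) and 1.02 (0.76 to 1.28). Because the same list set the quartiles and divided Kdr, these values do not measure Kdr per endothelial RNA. By CPM, Pecam1, Cdh5, Vwf and Tek lay between 3.26 and 4.07 in both libraries, and Angpt2 was at 2.22 in each. In the highest quartile the libraries differed in opposite directions for Vwf, at 51.3 and 31.7 CPM with a ratio of 0.69 (0.56 to 0.82), and for Cdh5, at 69.7 and 106 CPM with a ratio of -0.61 (-0.71 to -0.51). Pecam1 was at 83.4 and 72.1 CPM there, a ratio of 0.21 (0.11 to 0.31), against -0.56 (-0.95 to -0.19) in the lowest quartile.

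**Figure D3:**
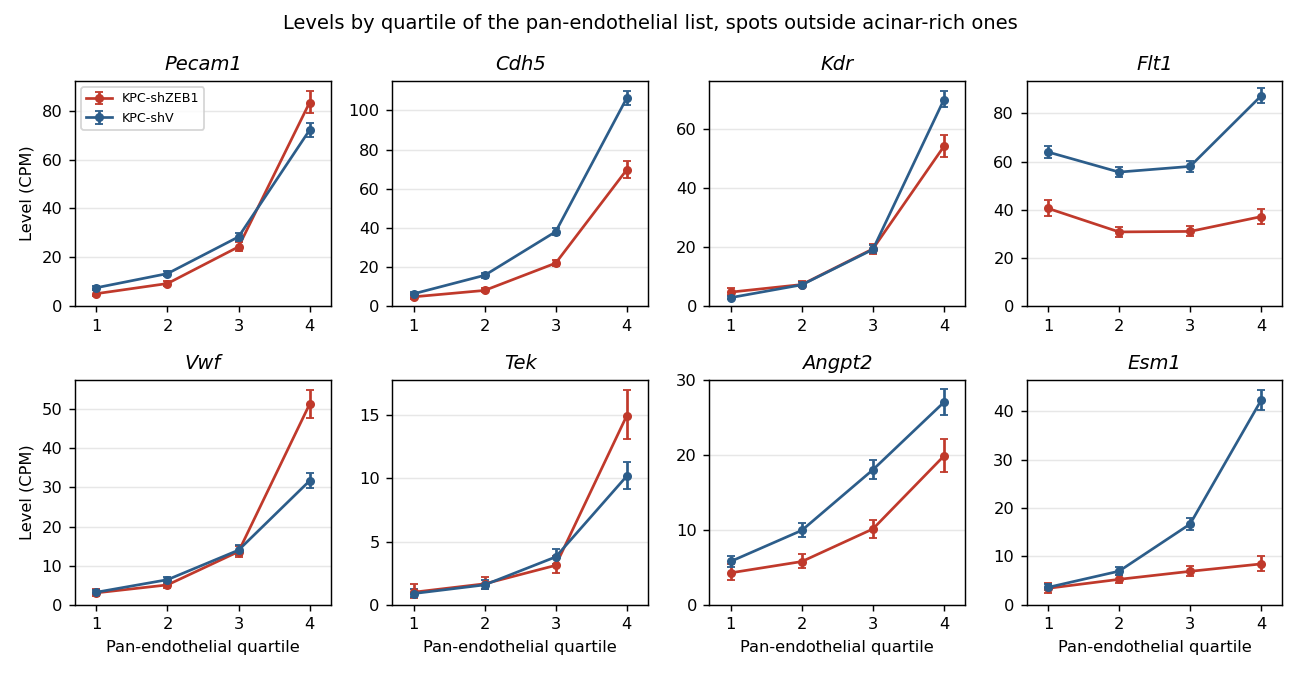
Level of each gene in CPM by quartile of the pan-endothelial list, from lowest (1) to highest (4), in tumor-side spots of the 2 libraries, with bars for the 95% Poisson interval. Most genes climb steeply with vessel content, Flt1 varies far less, and Esm1 reaches 42.3 CPM for KPC-shV but 8.5 CPM for KPC-shZEB1.

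Hypoxia was read from 9 targets of hypoxia-inducible factors, among them Car9, Ndrg1, Slc2a1 and Bnip3, and tumor-side spots were divided into tertiles at 620 and 1359 CPM of this list over both libraries. The low, middle and high tertiles held 609, 667 and 190 spots labelled KPC-shZEB1 and 982, 923 and 1400 labelled KPC-shV. From low to high hypoxia the pan-endothelial list was lower by a log2 ratio of -1.88 (-1.95 to -1.81) under the KPC-shZEB1 label and -1.93 (-1.96 to -1.91) under the KPC-shV label. Hypoxic spots were thus low in endothelial RNA in both sections. They also held more tumor epithelium signal (7830 and 8074 CPM against 4790 and 5407 in low hypoxia) and less macrophage signal (1167 and 646 CPM against 3018 and 2517). Fibroblast genes were at 2221 and 1495 CPM against 6526 and 6920. Acinar genes were at 2440 and 153 CPM against 13084 and 5561, and islet genes at 7.5 and 7.7 CPM against 170 and 127. The low tertile thus held more stroma and pancreas signal, and the part of these cells in the gene levels was not tested.

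Of the 8 genes, 5 were lower in high than in low hypoxia by a log2 ratio of at most -1 in either library, namely Pecam1, Cdh5, Kdr, Vwf and Tek. The share of all genes below that bound was 10.5% of 12720 under the KPC-shZEB1 label and 9.92% of 15810 under the KPC-shV label. The medians over the 8 were -2.13 and -1.66, against 0.05 and 0.02 over all genes tested. In high hypoxia, Kdr, Vwf (4.9 and 7.1 CPM) and Tek (1.5 and 1.2 CPM) lay within the tumor-side range of the genes with no expected role. Kdr and Vwf lay above the tumor-side levels of all these genes but Omp. Omp was itself higher in high than in low hypoxia, by 1.26 and 0.99. Tek was read in high hypoxia from only 15 and 75 UMIs. Kdr was read at 29.6, 14.6 and 5.3 CPM from low to high hypoxia under the KPC-shZEB1 label and at 41.7, 23.6 and 6.1 CPM under the KPC-shV label. Its ratios of high over low were -2.49 (-2.92 to -2.09) and -2.77 (-2.93 to -2.61). Per pan-endothelial UMI they were -0.61 (-1.02 to -0.20) and -0.83 (-0.99 to -0.67). Cdh5 was close to the summed list, with -1.90 (-2.22 to -1.60) and -1.89 (-1.99 to -1.79), which come to -0.02 and 0.05 per pan-endothelial UMI. Along hypoxia, values per pan-endothelial UMI here and below depend on this summed list, whose genes fell unequally. Their ratios of high over low ran from -0.38 for Ecscr to -3.61 for Mmrn2 under the KPC-shZEB1 label. Under the KPC-shV label they ran from -0.67 for Ecscr to -2.73 for Mmrn2. Ecscr alone gave 77.3 of 168 CPM and 60.6 of 196 CPM of the list in high hypoxia, respectively.

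Flt1 ran the other way. It was read at 30.4, 29.6 and 62.0 CPM from low to high hypoxia under the KPC-shZEB1 label and at 59.0, 61.5 and 74.2 CPM under the KPC-shV label. The ratio of high over low was 1.03 (0.88 to 1.17) and 0.33 (0.26 to 0.40), so Flt1 alone of the 8 passed 1, in 1 of the libraries. The share of all genes that did so was 2.34% under the KPC-shZEB1 label and 2.33% under the KPC-shV label. With 3 glycolysis genes in place of the hypoxia list, an alternative chosen after seeing the data, the ratios were 0.61 and 0.11. Per pan-endothelial UMI, Flt1 was higher in hypoxic spots by 2.91 (2.75 to 3.07) and 2.27 (2.19 to 2.34). These values include the fall of the list itself, at -1.88 and -1.93, and Flt1 did not follow that list across spots. They are therefore not levels of Flt1 per endothelial cell. The gap in Flt1 between the libraries was smallest in high hypoxia, at -0.26 (-0.38 to -0.14), against -0.96 (-1.06 to -0.86) in low hypoxia.

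Angpt2 and Esm1 lay between these patterns. Angpt2 was read at 10.6, 9.1 and 7.9 CPM from low to high hypoxia under the KPC-shZEB1 label and at 13.7, 18.5 and 12.0 CPM under the KPC-shV label. Its ratios of high over low were -0.42 (-0.79 to -0.07) and -0.19 (-0.34 to -0.04), which become 1.46 (1.10 to 1.82) and 1.74 (1.59 to 1.90) per pan-endothelial UMI. Esm1 was read at 5.6, 6.5 and 5.8 CPM and at 20.03, 19.3 and 10.5 CPM, respectively. Its ratios were 0.03 (-0.42 to 0.46) and -0.93 (-1.07 to -0.79), and per pan-endothelial UMI 1.91 (1.48 to 2.34) and 1.004 (0.86 to 1.15). Without the 5% of spots with the highest Esm1, the first of these ratios was -0.49.

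**Figure D4:**
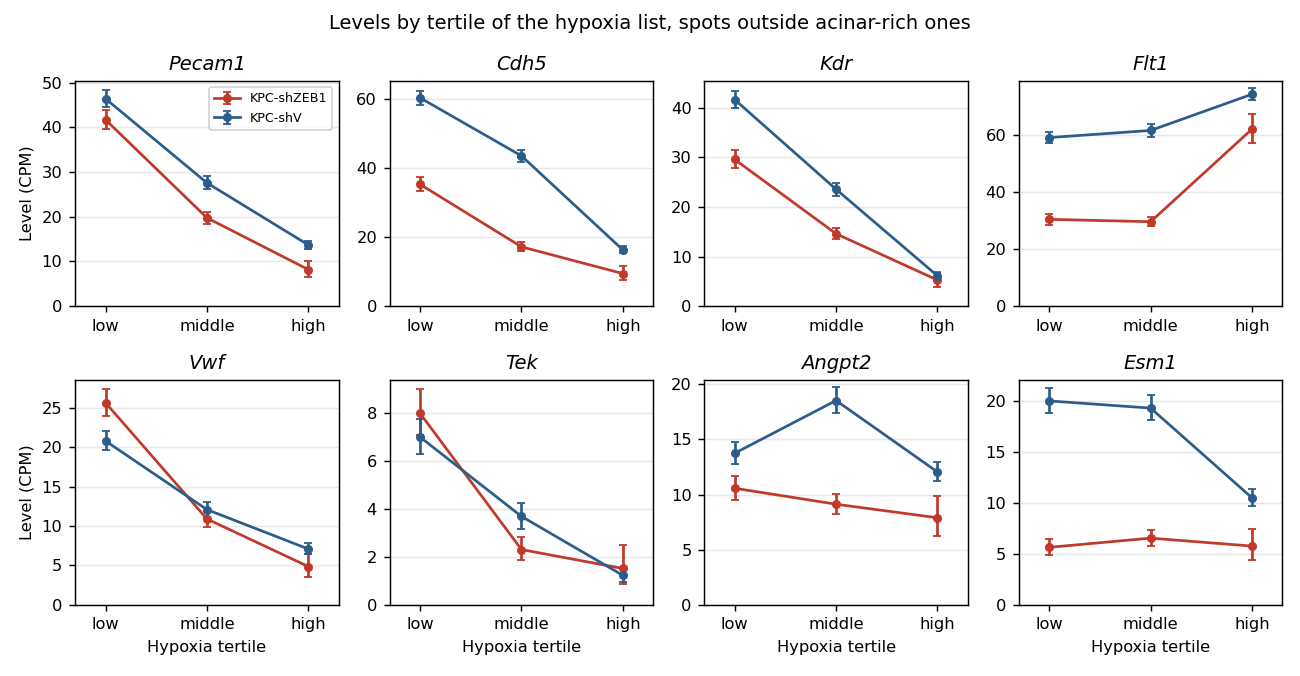
Level of each gene in CPM in low, middle and high hypoxia spots of the tumor side, with 1 line per library and bars for the 95% Poisson interval. Pecam1, Cdh5, Kdr, Vwf and Tek are lower with hypoxia in both libraries, whereas Flt1 reaches 62.0 and 74.2 CPM in the high tertile.

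To reduce the overlap of hypoxia with vessel content, each tertile was divided at the median of the pan-endothelial list (306 CPM). This did not remove it, since on each side of the median the list was still lower in high than in low hypoxia in both libraries. In vessel-poor spots, Flt1 was at 24.1, 27.8 and 60.8 CPM from low to high hypoxia under the KPC-shZEB1 label and at 36.3, 47.4 and 71.0 CPM under the KPC-shV label. In vessel-rich spots it was at 32.7, 32.0 and 74.4 CPM and at 65.4, 74.8 and 92.1 CPM. Flt1 was thus higher in hypoxic spots on both sides of the median, and the intervals of the low and high tertiles did not overlap in any of these 4 series. At a given hypoxia level Flt1 was also higher in vessel-rich than in vessel-poor spots, with intervals that did not overlap in any tertile under the KPC-shV label and in low hypoxia under the KPC-shZEB1 label. The vessel-rich, high hypoxia class of the library labelled KPC-shZEB1 held only 18 spots. Kdr, by contrast, was lower with hypoxia in vessel-poor spots, from 9.6 to 3.4 CPM and from 8.2 to 3.6 CPM. Per 100 pan-endothelial UMIs it went from 4.5 to 2.5 and from 3.8 to 2.6 there.

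Esm1 in vessel-poor spots was at 4.1, 4.6 and 5.4 CPM under the KPC-shZEB1 label and at 3.6, 5.4 and 5.6 CPM under the KPC-shV label, with overlapping intervals between the libraries in each tertile. In vessel-rich spots of the library labelled KPC-shV it went from 24.6 CPM (23.1 to 26.2) in low to 32.5 (30.3 to 34.7) in middle and 37.5 CPM (33.6 to 41.6) in high hypoxia. The corresponding levels under the KPC-shZEB1 label were 6.2 (5.3 to 7.3), 9.2 (7.8 to 10.7) and 9.3 CPM (4.0 to 18.3), below those of the other library in every tertile. Angpt2 in vessel-rich spots was at 12.6, 15.0 and 18.6 CPM and at 15.9, 27.3 and 36.1 CPM, respectively.

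**Figure D5:**
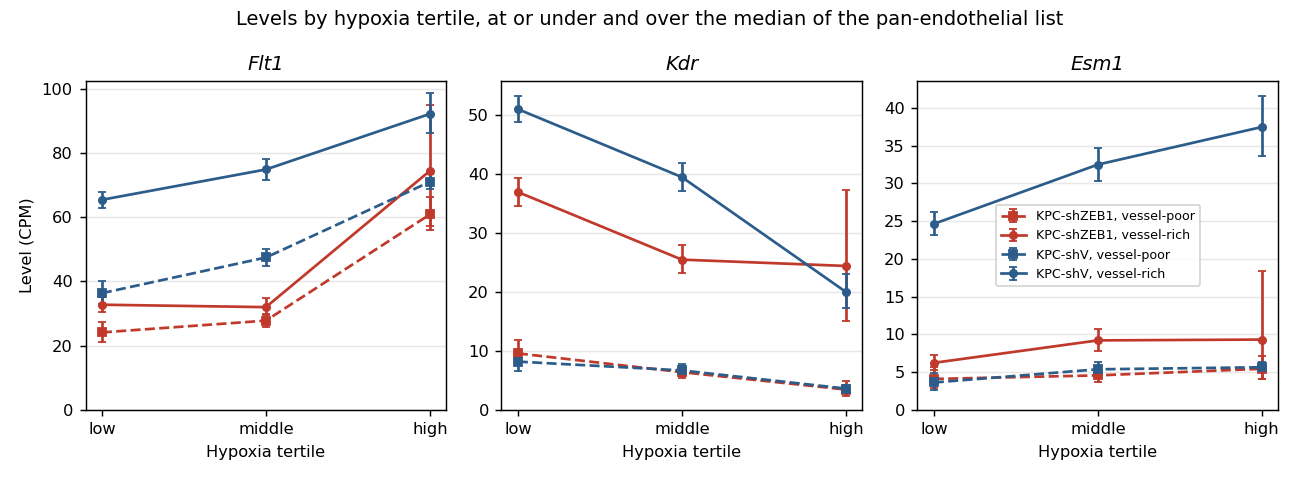
Levels of Flt1, Kdr and Esm1 in CPM by hypoxia tertile, in tumor-side spots at or under the median of the pan-endothelial list (vessel-poor, dashed) and over it (vessel-rich, solid), with 95% Poisson intervals. Flt1 is higher in high than in low hypoxia in all 4 lines, and Esm1 differs between the libraries in the vessel-rich lines.

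In acinar-rich tissue the 8 genes were lower under the KPC-shZEB1 label as well, but so was the median gene. Their log2 ratios ran from -1.12 (-1.57 to -0.66) for Tek to -3.18 (-3.93 to -2.44) for Esm1, and all 8 were at most -1, although Esm1 had under 100 UMIs. Of 10505 genes with at least 100 UMIs, 45.9% were at or below -1 as well and 0.505% at or above 1. The median gene was at -0.91, and the sum of the 8 was at 45.8 CPM against 129.0 CPM, a ratio of -1.49 (-1.61 to -1.38) that came to -0.58 relative to the median gene. Per pan-endothelial UMI, Pecam1 was higher by 0.41 (0.16 to 0.67), Cdh5 lower by -0.30 (-0.57 to -0.03) and Esm1 lower by -1.64 (-2.34 to -0.94), while the intervals of the other 5 spanned 0. Esm1 was read there at 0.58 CPM (0.40 to 0.82) and 5.3 CPM (3.7 to 7.4), from 32 and 34 UMIs, and the former lies within the 0.11 to 0.69 CPM of the genes with no expected role. The acinar-rich spots also differed in depth, with medians of 66642.5 and 24224 UMIs, and in macrophage signal, at 318 and 1149 CPM. Fibroblast genes were at 672 and 2952 CPM there and islet genes at 78.6 and 404 CPM. Of these spots, 86 of 754 and 149 of 247 held no more than 40% acinar UMIs. The part of these differences in the ratios was not tested.

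Acinar-rich over tumor-side spots within a section set tissue holding exocrine pancreas against the tumor side. Under the KPC-shV label many acinar-rich spots were mixed tissue, as given above, so their vessels need not be those of exocrine pancreas only. Most genes read lower in acinar-rich spots. In the library labelled KPC-shZEB1, 89.9% of 15389 genes were at or below -1 and 1.81% at or above 1, and 7 and 0 of the 8 were. In the library labelled KPC-shV the shares were 49.6% and 5.49% of 18039 genes, and 3 and 1 of the 8. The sum of the 8 had ratios of -1.62 (-1.68 to -1.55) and -0.66 (-0.76 to -0.56), but 0.67 and 0.58 relative to the median gene, and -0.38 and 0.05 with acinar genes out of the total, so the direction depended on the scaling.

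Per pan-endothelial UMI, which does not depend on the total, the 8 genes took different directions. Tek was higher in acinar-rich than in tumor-side spots by 1.31 (1.06 to 1.56) under the KPC-shZEB1 label and 1.18 (0.77 to 1.60) under the KPC-shV label, and Kdr by 0.40 (0.25 to 0.55) and 0.32 (0.09 to 0.55). The TIE2 ligand gene Angpt2 was lower by -0.96 (-1.27 to -0.64) and -1.23 (-1.70 to -0.76), and Esm1 by -1.80 (-2.32 to -1.28) and -1.51 (-2.003 to -1.02). Flt1, which did not follow this list across tumor-side spots, was lower by -0.47 (-0.62 to -0.32) and -1.52 (-1.77 to -1.27). Thus both libraries gave the same direction for these 5 genes. Pecam1, at 0.34 (0.21 to 0.47) and -0.07 (-0.30 to 0.17), did not share a direction, and the intervals for Cdh5 and Vwf spanned 0 in 1 library each.

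Over all spots, acinar tissue included, 4 of the 8 genes had a log2 ratio of at most -1 between the libraries, against 8.2% of 19011 genes, and 0 had a ratio of at least 1, against 2.08%. The 4 were Esm1 at -2.01 (-2.15 to -1.88), Flt1 at -1.43 (-1.49 to -1.37), Cdh5 at -1.16 (-1.23 to -1.09) and Angpt2 at -1.14 (-1.25 to -1.03). The median gene was at -0.48 here, and acinar UMIs made up 23.0% and 1.64% of the total. Relative to it the sum of the 8 was at -0.48 in place of -0.96 (-0.98 to -0.93).

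The ligands that these receptors bind also differed between the libraries on the tumor side. Of the 8 VEGF ligands and co-receptors, 2 were at or below -1 and 2 at or above 1. Vegfa, the main ligand of KDR and FLT1, was read at 39.1 CPM under the KPC-shZEB1 label and 165 CPM under the KPC-shV label, a log2 ratio of -2.08 (-2.13 to -2.03), and Pgf, a ligand of FLT1 and not of KDR, at 4.4 and 18.9 CPM, a ratio of -2.11 (-2.27 to -1.96). Vegfc and Vegfd, the ligands of the lymphatic receptor FLT4, were at 1.15 (1.07 to 1.24) and 1.09 (0.99 to 1.18). Vegfb was at -0.05 (-0.12 to 0.02), Nrp1 and Nrp2, the neuropilin co-receptors, at 0.34 (0.25 to 0.43) and 0.06 (0.03 to 0.09), and Flt4 at 0.53 (0.40 to 0.65). Vegfa and Pgf were higher in high than in low hypoxia by 2.35 and 2.48 under the KPC-shZEB1 label and by 2.87 and 3.16 under the KPC-shV label. Because the labels differ in their share of hypoxic spots, these ligands were also read within tertiles. Vegfa was at -0.97 (-1.09 to -0.86) in low, -1.29 (-1.39 to -1.20) in middle and -1.49 (-1.57 to -1.40) in high hypoxia, less far apart than in the pooled spots. Pgf was at -0.67 (-1.03 to -0.33), -1.37 (-1.69 to -1.07) and -1.36 (-1.60 to -1.13). The hypoxia list itself was at 0.06, -0.07 and -0.39 in the same tertiles, so within high hypoxia the labels still differed in it.

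Of the 5 angiopoietin ligands and TIE partners, 4 had at least 100 UMIs, and none of these passed 1 in either direction. Svep1, an extracellular ligand that binds the TIE1 receptor, was at 0.50 (0.46 to 0.54), the phosphatase gene Ptprb, which restrains TIE2, at 0.27 (0.19 to 0.36), Tie1 at -0.21 (-0.48 to 0.06) and Angpt4 at -0.37 (-0.51 to -0.23). Angpt1, the activating ligand, was read at 0.42 and 0.17 CPM from 64 UMIs in all, below the genes with no expected role.

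The 11 tip-cell and Notch genes had a median log2 ratio of -0.47, with 3 at or below -1 and 0 at or above 1. Dll4 was lowest, at 6.9 CPM under the KPC-shZEB1 label and 31.1 CPM under the KPC-shV label, a ratio of -2.18 (-2.30 to -2.05), and Cxcr4, a chemokine receptor also found on leukocytes, was highest at 0.61 (0.56 to 0.67). The other 2 were Apln, a peptide ligand made by tip cells, at -1.47 (-1.67 to -1.29) and Notch4, the endothelial Notch receptor, at -1.16 (-1.29 to -1.03), named after their values were seen. Within low, middle and high hypoxia, Dll4 was at -2.19 (-2.39 to -1.99), -2.36 (-2.55 to -2.17) and -1.74 (-2.07 to -1.43). Of 6 endothelial transcription factors, Sox7 was lowest at -1.45 (-1.61 to -1.30) and Fli1, which leukocytes also express, highest at 0.51 (0.39 to 0.64). In high over low hypoxia, Dll4 was at 0.34 under the KPC-shZEB1 label and -0.11 under the KPC-shV label. Apln was at 0.67 and 0.63, Sox7 at -0.22 and -0.24 and Notch4 at -0.65 and -1.02. The pan-endothelial list was at -1.88 and -1.93. Fli1 (-2.41 and -1.78), Hey1 (-1.38 and -2.38) and Aplnr (-2.33 and -3.2) were also lower in hypoxia, the last pair named after their values were seen. The part of cells other than endothelium in these levels was not tested. Among the 14 genes of the pan-endothelial list, Sox18 was lowest at -0.97 (-1.10 to -0.84) and Ramp2 highest at 0.44 (0.37 to 0.51). These lists share genes with each other, and their counts stand beside the 1.72% and 3.79% of all genes given above.

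The genes most like each of the 8 were sought by the mean Pearson r over both libraries, across 1412 and 2673 deep tumor-side spots and 10743 genes. Plvap, a protein of the endothelial fenestral diaphragm, came first for Pecam1 (0.65), Cdh5 (0.68), Kdr (0.64) and Vwf (0.51), with Eng or Cdh5 next. The third was Cdh5 for Pecam1, Cd34 for Cdh5 and Kdr, and Pecam1 for Vwf. For Tek the first were Sfrp1 (0.37), Svep1 (0.37) and Plvap (0.36), and for Angpt2 they were Cdh5 (0.33), Plvap (0.30) and Gpihbp1 (0.29). For Esm1, Gpihbp1, the capillary anchor of lipoprotein lipase, came first at 0.33, with r of 0.46 under the KPC-shV label and 0.21 under the KPC-shZEB1 label, before Plvap (0.31) and Fabp4 (0.31). Flt1 shared its first 3 with none of the others: the adhesion receptor Cd44 (0.24), the laminin gene Lama3 (0.23) and Vegfa (0.23), all weak in these sparse counts. For the sum of the 8 the first 3 were Plvap (0.69), Cd34 (0.59) and Igfbp7 (0.58).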

How the data were processed

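Spatial transcriptomics from 1 library per group was analyzed. Per the labels and methods, the authors hybridized probes to tissue sections, prepared Visium CytAssist libraries and processed them with Space Ranger 2.0.1 against mm10. The values the authors deposited are UMI counts for each spot and gene, not normalized. Spot images and positions were not used here.

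From the deposited counts, CPM levels, log2 ratios and exact 95% intervals were computed with Python 3.11.15, numpy 2.4.6, scipy 1.17.1 and pandas 2.3.3, and tested on simulated data. Intervals per pan-endothelial UMI are normal approximations on the log scale from 4 counts. With 1 library per group there was no test, and a ratio of at least 1 or at most -1 in log2 was counted among genes with at least 100 UMIs. Correlations used log2(CPM + 10) in spots of at least 20000 UMIs and genes of at least 5 CPM in each library. The 8 genes and all lists were chosen with earlier results of these data known. The libraries share 1718 spot barcodes, which are positions of the slide design.

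The genes named are the 8, all VEGF and angiopoietin genes and the highest and lowest gene of each other vessel list. The 3 genes most like each of the 8 are named too. The other tip-cell and Notch genes and Higd1b were added after their values were seen. Of the acinar list 19 of 24 genes were used (Cpb1, Prss1, Try5, Pnliprp1 and Amy2b not used here), of the tumor epithelium list 5 of 6 (without Krt18) and of the glycolysis list 3 of 7 (Pgk1, Pfkl and Gapdh). Ero1a of the hypoxia list was matched as Ero1l. Gene positions on GRCm38 were looked up in GENCODE M21, which matched 19451 features. Settings tried were the acinar limit (5% or 40%), the scaling, the weighting of spots, spot depth, the spots with the highest level, the hypoxia genes and their division, and thinning.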

Additional observations from a re-analysis of the deposited data

Results flagged for a closer look

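Tek and Vwf gave opposite directions in different settings of the same contrast, and in each case the difference itself was not tested. Tek was lower in acinar-rich than in other spots in the library labelled KPC-shZEB1, at a log2 ratio of -0.28, and higher in the library labelled KPC-shV, at 1.08. Between the libraries, Vwf was at -1.31 in acinar-rich spots and 0.31 outside them. Tek was likewise at -1.12 in acinar-rich spots and 0.23 outside them. The median gene was at -0.91 in acinar-rich spots and -0.02 outside them. Per pan-endothelial UMI, none of these directions turned. Tek was then higher in acinar-rich spots in both libraries, by 1.31 and 1.18. Between the libraries, Vwf came to 0.24 (-0.15 to 0.62) in acinar-rich spots and 0.38 outside them. Tek came to 0.42 (-0.02 to 0.86) and 0.30, respectively.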

How the results depend on the processing

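Depth and the single library per group limit these values, and classes of few spots, such as the 18 vessel-rich, high hypoxia spots labelled KPC-shZEB1, carry wide intervals. No paired analysis was possible because each group has 1 library. For the sum of the 8 genes over all spots (-0.96), the log2 ratio was -0.79 as the mean over spots, -0.99 without the 5% of spots with the highest level, -0.87 as the median over the 8 genes, -0.48 with median-of-ratios scaling and -0.60 with acinar genes out of the total. Outside acinar-rich spots (-0.54) it was -0.45 as the mean over spots, -0.42 as the median over genes, -0.57 with the acinar limit at 5% and -0.63 with equal weight to the 3 hypoxia tertiles. In acinar-rich spots (-1.49) it was -1.61 without the 5% of spots, -0.58 with median-of-ratios scaling, -0.96 with acinar genes out of the total, and -1.68 and -1.33 with the limit at 5% and 40%. Acinar-rich over other spots labelled KPC-shZEB1 (-1.62) gave -1.68 without the 5% of spots, -1.79 as the median over genes, 0.67 with median-of-ratios scaling, -0.38 with acinar genes out of the total, and -1.26 and -1.91 with the limit at 5% and 40%. The same contrast labelled KPC-shV (-0.66) gave -0.41 as the median over genes, 0.58 with median-of-ratios scaling, 0.053 with acinar genes out of the total, and -0.14 and -1.11 with the limit at 5% and 40%. High over low hypoxia spots labelled KPC-shZEB1 (-0.83) gave -2.13 as the median over genes, -0.94 with median-of-ratios scaling, -1.31 with glycolysis genes, -1.01 with tertiles within each library, -0.71 divided at the median and -0.72 in spots with at most 5% acinar UMIs. The same contrast labelled KPC-shV (-0.93) gave -1.04 as the mean over spots, -0.97 without the 5% of spots, -1.66 as the median over genes, -1.18 with glycolysis genes, -0.996 with tertiles within each library and -0.77 divided at the median. The cause of these moves was not tested. In high hypoxia, Flt1 gave 62.0 of the 104.9 CPM of the sum under the KPC-shZEB1 label and 74.2 of 141.1 CPM under the KPC-shV label. In low hypoxia it gave 30.4 of 186.7 CPM and 59.0 of 268.9 CPM, respectively. Without the 5% of spots with the highest level, 2 of the 8 genes were at or below -1 outside acinar-rich spots. Of 48 values for single genes between the libraries, 1 turned (Tek to -0.013 with equal weight to the tertiles), 12 moved past the interval of counting error and 35 did not. Of 48 shares of spots with a UMI, 35 moved past their interval and 13 did not. Of 63 for single genes along hypoxia, 19 moved and 44 did not. Among them, Esm1 labelled KPC-shZEB1, whose interval spanned 0, changed sign from 0.03 to -0.49 without the 5% of spots with the highest level. Leaving out the top spots gave no value for Tek along hypoxia labelled KPC-shV. For single genes, the mean over spots, the 5% limit and the glycolysis genes were chosen after seeing the data, and so was equal weight to the tertiles throughout.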

Other observations

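Lymphatic endothelium differed from the blood vessel genes. All 5 lymphatic genes had log2 ratios above 0 on the tumor side and 3 were at least 1, against 3.79% of all genes, with a sum of 38.9 CPM under the KPC-shZEB1 label and 16.1 CPM under the KPC-shV label. Mmrn1, a multimerin of lymphatic vessels, was highest at 2.44 (2.19 to 2.69), and Lyve1, a hyaluronan receptor also found on macrophages, was lowest at 0.09 (-0.21 to 0.39). Under the KPC-shV label these genes were read at 1.07 (Mmrn1) to 7.59 CPM (Flt4), within the 0.76 to 8.31 CPM of the genes with no expected role. Mmrn1 lay below their median of 1.09 CPM, whereas Flt4 and Prox1 (4.19 CPM) lay above all of them but Omp. Acinar genes (6726 and 1958 CPM) and islet genes (76.2 and 48.7 CPM) were also higher under the KPC-shZEB1 label, and their part was not tested. The lymphatic list was not higher in every class, at 1.42 (1.32 to 1.52) in low hypoxia, -0.25 (-0.64 to 0.12) in high hypoxia and -0.66 (-1.08 to -0.26) in the lowest quartile of the pan-endothelial list. Of 6 genes for leukocyte adhesion on endothelium, 4 were above 0 and 1 was at least 1, against 3.79% of all genes. Madcam1, the gut-homing addressin, was highest at 1.10 (0.97 to 1.23), and Selp, the P-selectin gene, lowest at -0.16 (-0.29 to -0.03). All 6 macrophage genes were also higher, with list sums of 2439 and 1558 CPM, and their part in these differences was not tested.

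Mural cells, which wrap vessels, pointed the other way. Of 8 mural genes, 7 were below 0, with a median of -0.70 against -0.01 over all genes tested. Of the 8, 1 was at or below -1, against 1.72% of all genes. The summed list differed less, at 146.5 and 181.9 CPM, a log2 ratio of -0.31 (-0.34 to -0.28). Within low, middle and high hypoxia the list was at -0.52, -0.58 and -0.27. Myh11, the smooth muscle myosin, was lowest at -1.05 (-1.23 to -0.87), and Pdgfrb, which fibroblasts also express, was highest at 0.30 (0.25 to 0.35). Myh11 (3.6 and 7.5 CPM) and Higd1b (3.2 and 3.3 CPM) lay within the range of the genes with no expected role, though above all but Omp.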
